A study of Mus musculus with 7 samples.

Results

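The steroid and prolactin receptors of the cultured mouse mammary gland were followed as 9 genes: Esr1, Esr2, Pgr, Gper1, Nr3c1, Nr3c2, Esrra, Prlr and Ghr. Genes were matched to array probes by RefSeq accession, which named 13971 genes in all. A probe was found for 7 of the 9 receptor genes, with 1 probe each, and for Nr3c2, the mineralocorticoid receptor, and Ghr, the growth hormone receptor, no probe was matched, so neither has a value here.

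The glands came from 4-week-old female mice and were kept in serum-free organ culture. The 7 arrays were 1 per group. The study's own 3 groups were each from the pooled RNA of 5 mice, namely αERKO glands and βERKO glands, both on a C57BL6/129SV background and lacking ERα and ERβ respectively, and wild-type (WT) C57 glands with 7,12-dimethylbenz[a]anthracene (DMBA), a polycyclic aromatic carcinogen, all after 24 days of culture. The other arrays held WT C57 glands without DMBA after 10 and after 24 days, and BALB/c glands after 24 days with and without vitamin D5. The sample titles name DMBA only for the WT array, although the study's protocol gives it at 2 µg/ml for 24 h on day 3, and the BALB/c titles give neither DMBA exposure nor how much vitamin D5 was used. By that protocol the medium held insulin, prolactin, aldosterone and hydrocortisone for 10 days and insulin only for the next 14 days. Mice of the WT DMBA, αERKO and βERKO arrays had been pretreated with EGF and progesterone for 5 days. The sample descriptions of all 7 arrays also name estrogen with progesterone for 9 days, and which of these the other 4 arrays had is not stated. By the paper, the WT and βERKO glands on the arrays carried mammary alveolar lesions and the αERKO glands had none, so lesions differ between these groups along with genotype. On αERKO the methods differ, naming it as a group taken for arrays and then saying that none could be harvested. The WT mice were C57, so the knockout arrays differ from the WT array in background as well as genotype, and the 2 cannot be told apart.

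In the mammary gland ERα, encoded by Esr1, and the progesterone receptor are made by a subset of luminal cells, which pass the hormone signal to their neighbours through secreted factors such as RANKL. The prolactin receptor signals through the kinase JAK2 and the factor STAT5 to milk protein genes, and the glucocorticoid receptor cooperates with STAT5 there. Unliganded steroid receptors are held by HSP90 and its partner chaperones, and coregulators join them on DNA.

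A level below is the intensity of a spot, after its local background is subtracted, divided by the median over the 34967 gene probes of its array, so that 1 is the middle of the array. A spot is called good where the scanner software placed it above background. The lowest good level was between 0.271 and 0.362 over the 7 arrays. A gene is called where its level differs by over 2-fold. Where the spot was near background on 1 of the arrays, only a bound can be given, and the bound must pass. Such a bound is set at that array's lowest good level, or at the level of the spot itself if higher. That is not a detection limit, since on the BALB/c array Tff1 was near background at a level of 1.20. Folds given as at least hold under this rule only, and the true fold can be smaller. With 1 array per group there is no spread between replicates and no test was possible. As a yardstick, the SD of log2 ratios between different probes for the same accession is given for each comparison, and it lay between 0.23 and 0.59. This SD is narrower than the 2-fold threshold, so all genes called lie outside it. How many of all genes lay outside it was not counted, and lying outside it does not set a receptor gene apart. The arrays correlated with each other with Pearson's r between 0.757 and 0.867 across gene probes. On the αERKO array the summed level of 9 skeletal muscle markers was 2307, against 8.53 to 51.6 on the others, and that of 8 T and B cell markers was 72.2, against 12.0 to 14.6. In bulk RNA, fewer cells of a type and less RNA per cell cannot be told apart.

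Sequence before the start sites was read for the receptor genes whose levels moved side by side, Pgr and Prlr, and for Esr1, the gene disrupted in αERKO mice. From RefSeq (GRCm38.p6), 12 windows of 250 bases upstream of start sites were taken for 8 of the receptor genes, leaving out Nr3c1. Each was searched on both strands for the letters of a STAT element (TTCNNNGAA), an estrogen response element (GGTCANNNTGACC), an estrogen-related receptor element (TCAAGGTCA) and a glucocorticoid response element (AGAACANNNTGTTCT). The STAT letters stood in 2 of the 12 windows, upstream of 1 start site of Esr1 and 1 of Prlr, and in 7.02% of the 32851 windows of all genes. Capitals mark those letters, which are the same 9 bases in both windows. The other 3 motifs were in none of the 12 windows, and in 0.0639%, 0.387% and 0.00913% of all windows. A match describes the letters only.
Pgr, chr9:8899583-8899832, + strand: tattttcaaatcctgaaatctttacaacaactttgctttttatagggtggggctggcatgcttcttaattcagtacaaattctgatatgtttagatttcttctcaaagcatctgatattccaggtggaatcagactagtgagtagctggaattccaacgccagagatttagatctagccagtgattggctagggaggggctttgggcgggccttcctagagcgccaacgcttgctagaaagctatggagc
Prlr, second start site, chr15:10223656-10223905, + strand: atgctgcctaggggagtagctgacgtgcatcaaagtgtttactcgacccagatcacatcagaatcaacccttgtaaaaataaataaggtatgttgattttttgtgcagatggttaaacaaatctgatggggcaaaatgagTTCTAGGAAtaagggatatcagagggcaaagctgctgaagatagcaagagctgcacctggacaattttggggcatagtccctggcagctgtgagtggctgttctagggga
Esr1, second start site, chr10:4709908-4710157, + strand: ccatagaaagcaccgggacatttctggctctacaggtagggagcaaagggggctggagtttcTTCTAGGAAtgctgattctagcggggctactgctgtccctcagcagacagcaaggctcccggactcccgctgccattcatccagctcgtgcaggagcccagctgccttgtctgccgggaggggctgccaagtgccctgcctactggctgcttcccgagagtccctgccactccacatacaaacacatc

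Of the receptor genes, 5 had good spots on all 7 arrays: Pgr, Gper1, Nr3c1, Esrra and Prlr. None of their 35 log2 ratios over the 7 comparisons, which share arrays, reached 2-fold. Of all genes good on both arrays, 2.21% to 26.7% did, depending on the comparison. The farthest apart was Prlr between WT glands at 24 and at 10 days, with 1.96-fold. Esr1 and Esr2 were each good on only 2 of the 7 arrays, and every receptor gene called over 2-fold was 1 of these 2, by a bound. The plot of receptor levels shows the 7 genes on each array.

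**Figure D1:**
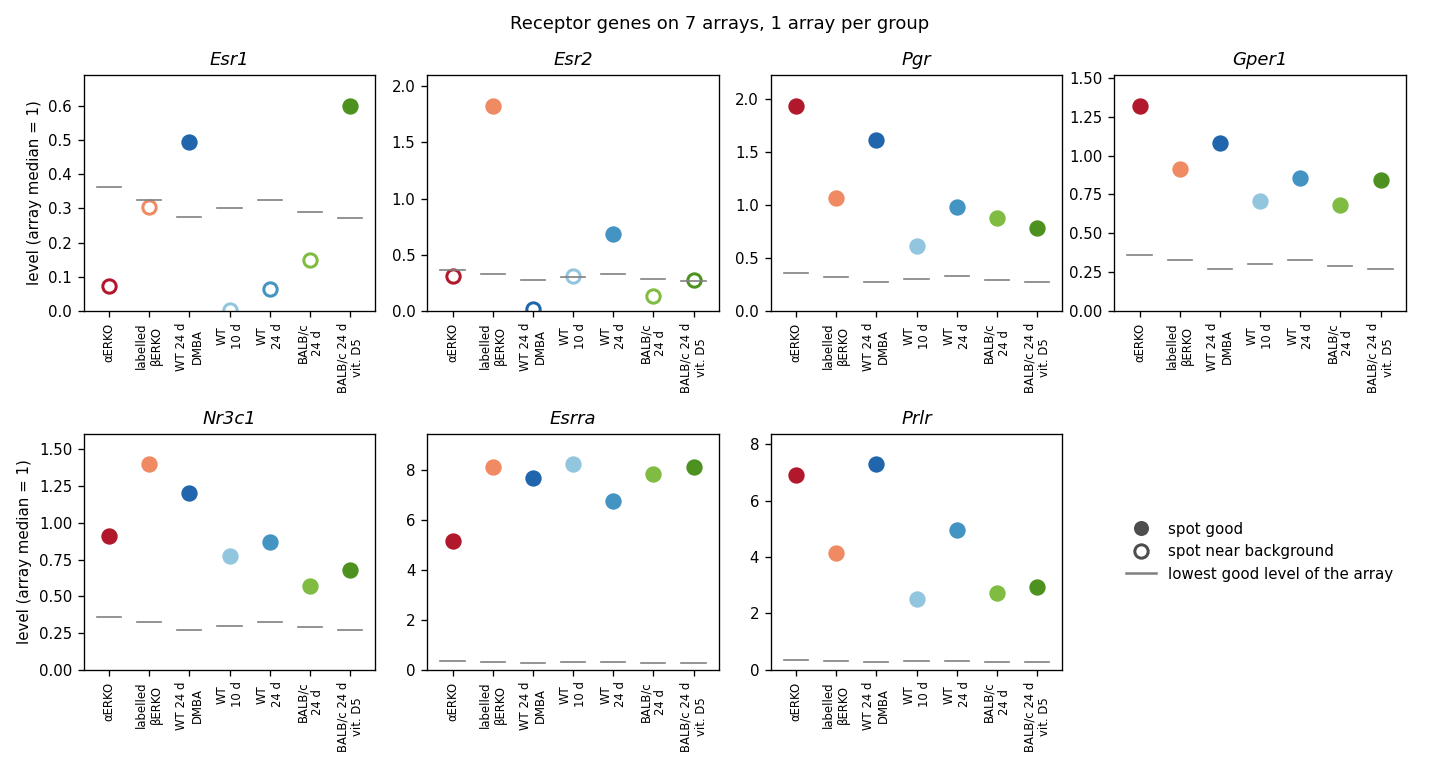
Level of each receptor gene (y axis, array median = 1, each panel on its own linear scale from 0) on the 7 arrays (x axis, 1 array per group). Filled points are good spots, open points are near background, and grey lines mark each array's lowest good level; Esr1 and Esr2 are filled on 2 arrays each, and the other 5 genes on all 7.

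Esr1, which encodes ERα, gave a good spot for WT glands with DMBA, at a level of 0.494, and for BALB/c glands with vitamin D5, at 0.600. It was near background on the αERKO array (0.0737), the βERKO-labelled array (0.304), the WT arrays without DMBA at 10 days (0.00143) and 24 days (0.0641) and the BALB/c array without vitamin D5 (0.150). The 2 good levels were 1.21-fold apart. Esr1 was thus near background on 3 of the 5 wild-type arrays as well as on the αERKO array, and the probe does not separate αERKO glands from wild type. Where the probe lies relative to the disrupted part of the gene is not given in the sources used here.

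Esr2, which encodes ERβ, was brightest on the βERKO-labelled array, with a good spot at a level of 1.83, and it was also good on the WT array at 24 days without DMBA, at 0.683. The other arrays were near background, with 0.313 for αERKO, 0.0170 for WT with DMBA, 0.311 for WT at 10 days, 0.137 for BALB/c and 0.273 for BALB/c with vitamin D5. The good levels were 2.67-fold apart. The gene targeted in βERKO mice was therefore highest on the array carrying that label, and directions drawn from it rest on the label. Where the Esr2 probe lies relative to the disrupted part is likewise not given in the sources used here.

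Pgr encodes the progesterone receptor, a textbook target of ERα. Its level was 1.94 on the αERKO array, 1.07 on the βERKO-labelled array and 1.61 on the WT array with DMBA. It was 0.615 for WT at 10 days, 0.983 for WT at 24 days, 0.880 for BALB/c and 0.785 for BALB/c with vitamin D5. The αERKO array was the highest and the youngest culture the lowest, 3.15-fold apart. Among wild-type arrays the levels ran from 0.615 to 1.61, with the array with DMBA at the top.

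Gper1, for the membrane estrogen receptor GPR30, had a level of 1.32 on the αERKO array, 0.915 on the βERKO-labelled array and 1.08 on the WT array with DMBA. The arrays of WT at 10 and 24 days had 0.705 and 0.857, and BALB/c without and with vitamin D5 had 0.682 and 0.844. The highest and lowest arrays were 1.94-fold apart, and αERKO was again the highest.

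Nr3c1 encodes the glucocorticoid receptor. Its level was 0.908 on the αERKO array, 1.40 on the βERKO-labelled array and 1.20 on the WT array with DMBA, then 0.776 for WT at 10 days, 0.867 for WT at 24 days, 0.568 for BALB/c and 0.678 for BALB/c with vitamin D5. Both BALB/c arrays lay below all 5 others, and the highest and lowest were 2.46-fold apart.

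Esrra encodes the estrogen-related receptor ERRα, which binds no estrogen and acts with PGC-1 coactivators on mitochondrial genes. It varied least, from 5.16 on the αERKO array to 8.24 for WT at 10 days, or 1.60-fold. The βERKO-labelled array had 8.13, WT with DMBA 7.70, WT at 24 days 6.76, BALB/c 7.87 and BALB/c with vitamin D5 8.12. The αERKO array stood below the range of the wild-type arrays, 6.76 to 8.24.

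Prlr, the prolactin receptor, had a level of 6.92 on the αERKO array, 4.15 on the βERKO-labelled array and 7.28 on the WT array with DMBA. WT glands without DMBA had 2.52 at 10 days and 4.95 at 24 days, and BALB/c glands had 2.73 without and 2.93 with vitamin D5. The highest and lowest arrays were 2.89-fold apart. As for Pgr, the αERKO and WT DMBA arrays were the 2 highest and WT at 10 days the lowest.

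In αERKO glands against WT glands with DMBA, 0 of the 6 receptor genes that could be tested were called, where 22.6% of all 12079 named genes tested were. Esr1 was at least 1.36-fold lower, and Esr2 was near background on both arrays. The log2 ratios were 0.26 for Pgr, 0.29 for Gper1, -0.41 for Nr3c1, -0.58 for Esrra and -0.07 for Prlr, all within the SD of 0.59 between probes of the same accession. The median over all genes was -0.15. Pgr was 1.20-fold higher on the αERKO array, by less than this yardstick.

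For the βERKO-labelled array against WT with DMBA, 1 of 7 receptor genes was called, Esr2, at least 6.69-fold higher, beside 11.0% of all genes. Prlr and Pgr were lower, with log2 ratios of -0.81 and -0.60, both outside the SD of 0.37 though under 2-fold, where the median of all genes was 0.15. Esr1 was near background there and had a bound of 1.52-fold lower, beside the 1.36-fold given for αERKO. These bounds differ only through the lowest good levels of the βERKO-labelled (0.325) and αERKO (0.362) arrays, and do not rank Esr1 between them. Gper1 had -0.24, Nr3c1 0.21 and Esrra 0.08, all inside the SD of 0.37. The sign of Esrra turned under quantile normalization.

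When the 2 knockout arrays were compared with each other, 1 of 6 receptor genes was called, Esr2, at least 5.05-fold lower for αERKO, where 28.5% of all genes were called. Pgr and Prlr were higher on the αERKO array, with log2 ratios of 0.86 and 0.74, and Esrra and Nr3c1 were lower, with -0.66 and -0.62. These 4 lay outside the SD of 0.56, and Gper1, with 0.53, did not. The median of all genes was -0.30. Scaled to the 75th percentile of each array, Pgr passed 2-fold with a log2 ratio of 1.04. These 3 comparisons share their arrays and are not independent of each other.

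In WT glands with against without DMBA at 24 days, 1 of 7 receptor genes was called, Esr2, at least 2.50-fold lower with DMBA, beside 16.3% of all genes. The 5 receptor genes good on both arrays were all higher with DMBA, with log2 ratios of 0.72 for Pgr, 0.56 for Prlr, 0.48 for Nr3c1, 0.33 for Gper1 and 0.19 for Esrra, where the median of all genes was -0.16. All but Esrra were outside the SD of 0.31. Esr1 was at least 1.52-fold higher with DMBA. Pretreatment is not stated for the array without DMBA, so a difference in pretreatment cannot be told apart from DMBA. Of the cell type markers, 7 of 7 fibroblast and 6 of 6 endothelial ones were higher with DMBA, while 5 of 11 luminal ones were lower. Their part in these ratios was not tested.

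At 24 against 10 days in WT glands without DMBA, 1 of 6 receptor genes was called, Esr2, at least 2.20-fold higher at 24 days, beside 6.65% of all genes. The log2 ratios were 0.97 for Prlr and 0.68 for Pgr, 0.28 for Gper1, 0.16 for Nr3c1 and -0.29 for Esrra, and all but Nr3c1 were outside the SD of 0.23. The median of all genes was 0.15.

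In BALB/c glands with against without vitamin D5, 1 of 6 receptor genes was called, Esr1, at least 2.08-fold higher with vitamin D5, beside 5.85% of all genes. Gper1 and Nr3c1 had log2 ratios of 0.31 and 0.26, outside the SD of 0.23, while Prlr had 0.10, Esrra 0.05 and Pgr -0.17. Scaling to the 75th percentile took Esr1 under 2-fold and turned the sign of Prlr and Esrra.

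In BALB/c against WT glands at 24 days, with DMBA unstated for the BALB/c array, 1 of 6 receptor genes was called, Esr2, at least 2.37-fold lower in BALB/c, beside 15.1% of all genes. Prlr and Nr3c1 were lower, with log2 ratios of -0.86 and -0.61, outside the SD of 0.33 and beyond the median of all genes of -0.33. Gper1 had -0.33, Pgr -0.16 and Esrra 0.22. The calls of Esr2 with DMBA, with time and between strains all rest on 1 good spot, that of the WT array at 24 days, which the 3 comparisons share.

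**Figure D2:**
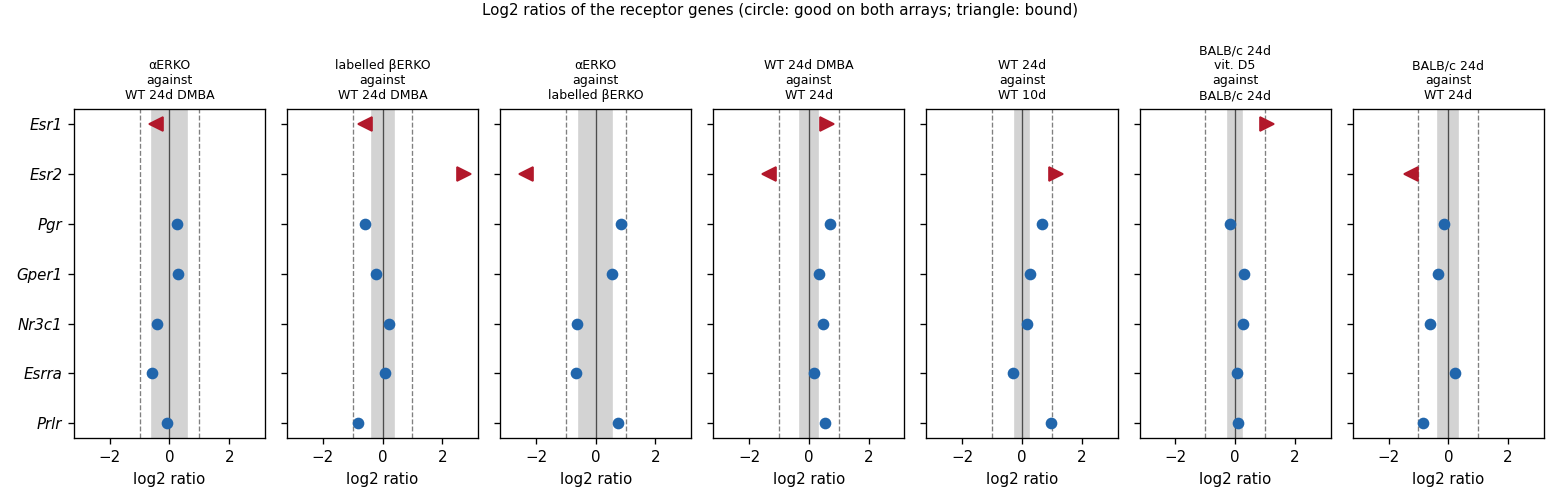
Log2 ratio of the first over the second array (x axis) for the 7 receptor genes (rows) in the 7 comparisons (panels). Circles are genes good on both arrays, triangles are bounds pointing away from 0, the grey band is 1 SD between probes of the same accession and dashed lines mark 2-fold; no circle lies beyond a dashed line.

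Genes most like a receptor in their pattern were ranked by the root mean square (RMS) difference of log2 levels, centred on each gene's mean over the 7 arrays, among 9337 genes good on all 7, for the 3 receptor genes that spanned over 1 log2 unit. For Prlr these were Suox (0.149), Miga2 (0.155) and Jak2 (0.162), where the median gene had 0.683. For Pgr the nearest included Jak2 (0.161) and Hibadh (0.163), with a median gene at 0.672. Jak2, which encodes the kinase bound to the prolactin receptor, was among the nearest 3 for both. Its level was 1.20 for αERKO, 0.850 for the βERKO-labelled array, 1.26 for WT with DMBA, 0.527 for WT at 10 days, 0.742 for WT at 24 days, 0.557 for BALB/c and 0.562 for BALB/c with vitamin D5. Like Prlr, it was highest with DMBA and lowest at 10 days. For Nr3c1 the nearest were Trdmt1 (0.0493), Retsat (0.0623) and Boc (0.0770), where the median gene had 0.496. The likeness is a description over 7 arrays, and all genes of an array share its RNA pool.

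**Figure D3:**
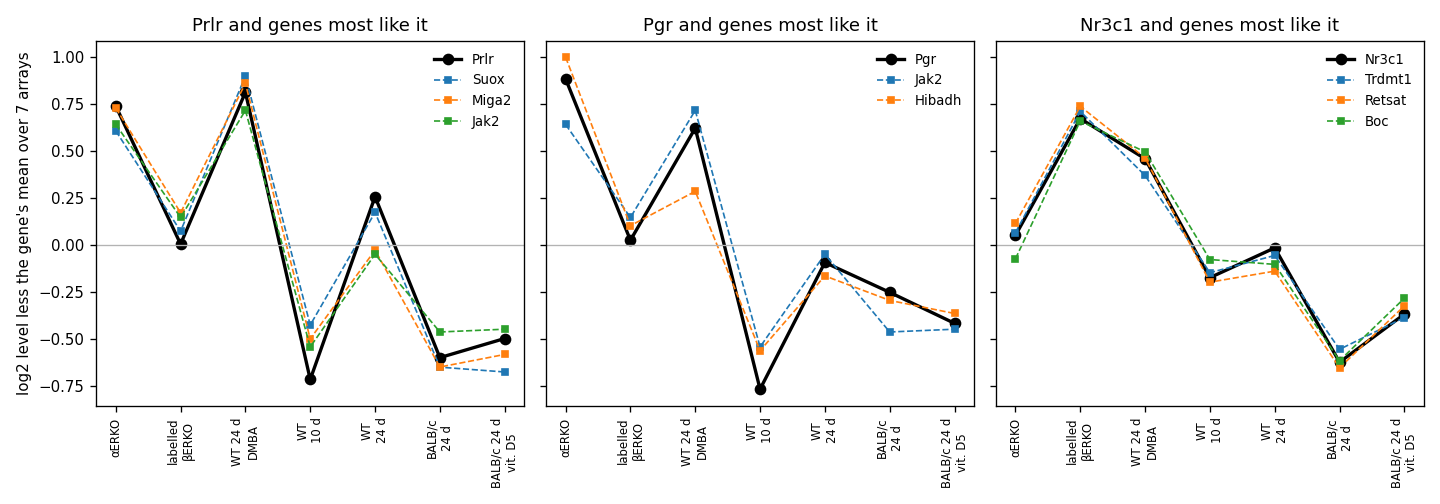
Log2 level less the gene's own mean over the 7 arrays (y axis) on each array (x axis, 1 array per group) for Prlr, Pgr and Nr3c1 (black) and genes among the 3 with the smallest RMS difference from each (dashed; 3 for Prlr and Nr3c1, 2 for Pgr); lines join arrays for reading only. Jak2 is among the 3 nearest to Prlr (0.162) and to Pgr (0.161).

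The arrays with the most Prlr and Pgr were also those with the most stromal marker RNA. The summed level of 9 adipocyte markers was 3615 for αERKO, 1646 for the βERKO-labelled array, 1957 for WT with DMBA, 313 for WT at 10 days, 1082 for WT at 24 days, 268 for BALB/c and 182 for BALB/c with vitamin D5. The 7 endothelial markers summed to 56.7, 19.5, 50.4, 4.31, 10.1, 6.06 and 4.46 on the arrays in the same order, and the 7 fibroblast markers to 426, 71.5, 223, 19.4, 13.6, 25.7 and 45.9. The 12 luminal markers, of the epithelium that expresses these receptors, summed to between 571 on the αERKO array and 1332 for WT at 24 days, with 693 for WT with DMBA, and the 7 basal markers ran from 140 on the αERKO array to 840 for BALB/c with vitamin D5. On each array 11 of 12 luminal and at least 6 of 7 basal markers were good. The rest had another quality call, and none was near background. Mammary epithelium was thus present on all 7 arrays. Gene by gene, 6 of 11 luminal markers were over 2-fold lower in αERKO than in WT with DMBA and 0 higher, with a median log2 ratio of -1.11. Of the basal markers 5 of 7 were lower and 0 higher, with a median of -1.27. In that comparison 12.9% of all genes were lower and 9.60% higher. Within the luminal sums Krt18 had a level of 166 for αERKO and 172 for WT with DMBA. The 4 macrophage markers summed to between 64.8 on the αERKO array and 302 on the WT array with DMBA, and the 6 milk protein genes to between 64.3 for BALB/c and 364 for WT with DMBA. The part of these cells in the Prlr and Pgr levels was not tested.

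**Figure D4:**
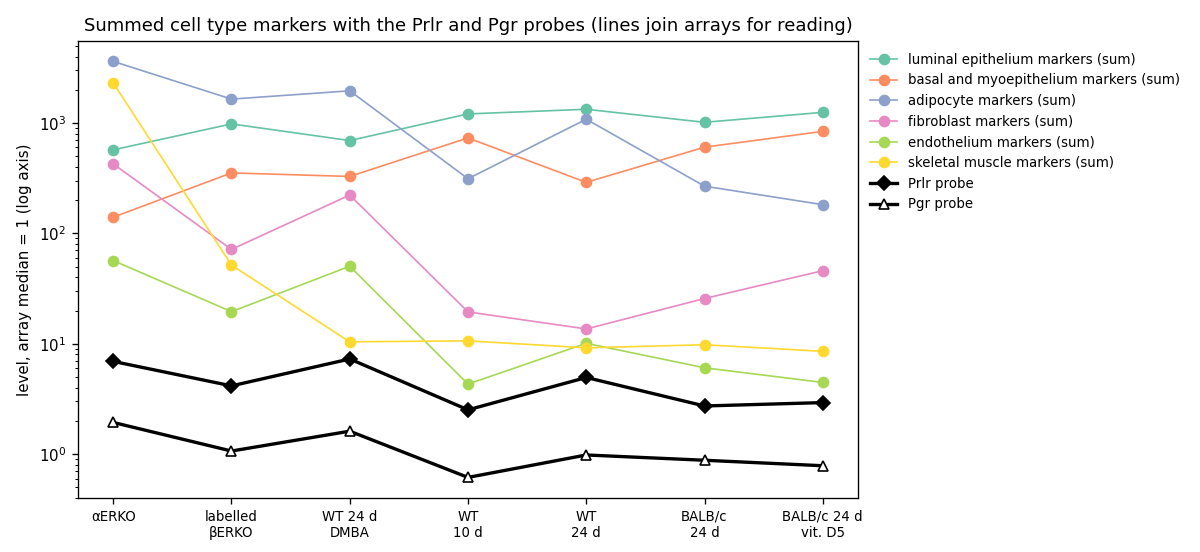
Summed level of each cell type's marker genes and level of the Prlr and Pgr probes (y axis, array median = 1, log axis) on the 7 arrays (x axis, 1 array per group); lines join arrays for reading only. Prlr (diamonds) and Pgr (open triangles) are highest on the αERKO and WT DMBA arrays, where adipocyte markers sum to 3615 and 1957, and lowest for WT at 10 days, where they sum to 313. Adipocyte sums are lower still for BALB/c without (268) and with vitamin D5 (182), where Prlr and Pgr are higher than for WT at 10 days.

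The receptors' pathways were described with 12 lists of genes that leave out the 9 receptor genes. In αERKO glands against WT with DMBA, 12 of 15 prolactin targets were called, 4 higher and 8 lower, where 22.6% of all genes were called. Csn2, for β-casein, had a level of 55.3 for WT with DMBA and 41.9 for WT at 24 days, 1.32 for BALB/c with vitamin D5 and 0.396 for WT at 10 days. It was near background on the αERKO array (0.249), the βERKO-labelled array (0.251) and the BALB/c array (0.329). Against WT with DMBA, Csn2 was therefore lower by at least 153-fold for αERKO and by at least 170-fold for the βERKO-labelled array.

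The caseins Csn1s1 and Csn1s2a were lower on both knockout arrays too. Csn1s1 had a level of 0.699 for αERKO and 1.90 for the βERKO-labelled array against 22.2 for WT with DMBA, and Csn1s2a had 0.855 and 1.64 against 24.2. Csn3, for κ-casein, was 4.15-fold lower in αERKO, with a level of 62.2 against 259, while on the βERKO-labelled array, at 218, it was within the SD. Tnfsf11, which encodes RANKL and is a target of progesterone and prolactin, had a level of 40.0 for WT with DMBA, 5.46 for WT at 24 days, 2.59 for αERKO and 0.385 for BALB/c, and was near background on the other 3 arrays. Against WT with DMBA it was lower by 15.4-fold for αERKO and by at least 123-fold for the βERKO-labelled array. The prolactin targets higher on the αERKO array were led by Glycam1, with a level of 72.2 against 3.09, Tph1, with 12.6 against 0.778, and Igf2, 4.10-fold higher. Glycam1 is also a product of lymph node venules, and the αERKO array was the one with T and B cell markers at 72.2, so their part in Glycam1 was not tested.

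For the βERKO-labelled array, 8 of 15 prolactin targets were called, 2 higher and 6 lower, beside 11.0% of all genes. The median log2 ratio of the prolactin targets good on both arrays was -0.24 for αERKO and -0.01 for the βERKO-labelled array. Over all genes it was -0.15 and 0.15. These medians leave out targets with only a bound, all of which were lower. For αERKO those were Csn2, Lalba (at least 2.98-fold) and Ccnd1 (at least 2.32-fold), and for the βERKO-labelled array Csn2 and Tnfsf11. With DMBA 5 of 15 were higher and 1 lower, beside 16.3% of all genes called. At 24 against 10 days 5 of 15 were higher and 1 lower, beside 6.65% of all genes called. Those higher at 24 days included Csn2 (106-fold), Csn1s2a (6.65-fold) and Csn3 (4.49-fold). By the protocol the medium held prolactin and hydrocortisone until day 10 and neither from then on. With vitamin D5, 4 of 14 were higher and none lower, beside 5.85% of all genes called. They were Csn1s1 (5.57-fold), Csn2 (at least 4.01-fold), Csn3 (2.99-fold) and Lalba, for α-lactalbumin (2.01-fold), and scaling to the 75th percentile left 3. BALB/c glands against WT had 2 of 14 higher and 4 lower, beside 15.1% of all genes called. Csn2 was at least 127-fold lower in BALB/c.

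Of 14 genes of prolactin and growth hormone signalling, 2 were higher and 4 lower in αERKO against WT with DMBA, with a median log2 ratio of -0.51, where 22.6% of all genes were called with a median of -0.15. Stat3, for a STAT factor known for its part in mammary involution, had a level of 6.05 on the αERKO array and between 21.5 and 41.9 on the 6 others. Ptpn1, for the phosphatase PTP1B, was 4.15-fold lower there, and Socs1 and Socs2, which encode feedback inhibitors of JAK-STAT signalling, were 2.62-fold and 2.11-fold higher. Stat5a, chosen after its values were seen, had a level of 14.2 for WT with DMBA and between 5.68 and 8.46 on the others. Against the same WT array 0 were higher and 2 lower on the βERKO-labelled array, beside 11.0% of all genes. Between αERKO and the βERKO-labelled array 1 was higher and 5 lower, beside 28.5%. In each of the 4 comparisons among wild-type arrays no more than 3 were called, beside 5.85% to 16.3% of all genes. Growth hormone targets had 1 of 9 higher and 2 lower in αERKO and 1 higher and 3 lower on the βERKO-labelled array, beside the same 22.6% and 11.0% of all genes. Igf1, their best known member, had a level of 42.7 for αERKO, 8.18 for the βERKO-labelled array and 28.9 for WT with DMBA. It had 1.01 for WT at 10 days, 5.82 for WT at 24 days and 0.864 for BALB/c with vitamin D5, and was near background for BALB/c. The fibroblast markers also summed highest on the αERKO (426) and WT DMBA (223) arrays, and their part in Igf1 was not tested.

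Glucocorticoid receptor targets were lower in αERKO glands than in WT glands with DMBA: 8 of 17 were lower and 1 higher, where 12.9% of all genes were lower and 9.60% higher. Their median log2 ratio was -0.96, against -0.15 over all genes, and it was -0.83 or lower under each other scaling tried. In the same comparison the luminal and basal markers had medians of -1.11 and -1.27, and their part in these targets was not tested. Fkbp5, which encodes an HSP90 partner induced by glucocorticoids and progestins, was 13.5-fold lower. Its level was 0.806 for αERKO, 1.12 for the βERKO-labelled array, 10.9 for WT with DMBA, 1.25 for WT at 10 days, 5.82 for WT at 24 days, 0.828 for BALB/c and 1.13 for BALB/c with vitamin D5. Only the 2 WT arrays at 24 days were above 1.25. Mt2, for a metallothionein, and Errfi1, for an EGFR inhibitor, were 3.84-fold and 2.93-fold lower in αERKO, and Cdkn1c, for the cell cycle inhibitor p57, was 3.13-fold higher.

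Tsc22d3, for the glucocorticoid-induced leucine zipper, had a level of 93.2 for αERKO, 27.1 for the βERKO-labelled array, 133 for WT with DMBA, 17.2 for WT at 10 days, 51.9 for WT at 24 days, 17.3 for BALB/c and 17.7 for BALB/c with vitamin D5. It was 4.92-fold lower on the βERKO-labelled array than on WT with DMBA. There 2 of 17 targets were lower, Fkbp5 (9.67-fold) and Tsc22d3, and 0 higher, a share of 11.8% that was near the 11.0% of all genes. At 24 against 10 days 5 of 16 were higher and 0 lower, led by Fkbp5 (4.64-fold), Tsc22d3 (3.01-fold) and the kinase gene Sgk1 (2.96-fold), where 3.75% of all genes were higher. In BALB/c against WT 7 of 16 were lower and 0 higher, led by Fkbp5 (7.04-fold), Sgk1 (5.76-fold) and Glul, for glutamine synthetase (4.27-fold), where 10.8% of all genes were lower. Nr3c1 itself differed by under 2-fold in each of these comparisons. With DMBA 3 of 16 were higher (18.8%, beside 16.3% of all genes), and with vitamin D5 only Sgk1, of 17 (5.88%, beside 5.85%).

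Mineralocorticoid receptor targets shared Tsc22d3 and Sgk1 with that list. In αERKO 1 of 8 was higher and 2 lower, led by the Na,K-ATPase subunit gene Atp1b1 (4.06-fold), beside 22.6% of all genes called. The βERKO-labelled array had 1 higher and 4 lower, led by the sodium channel subunit gene Scnn1b (5.15-fold), beside 11.0%, and in BALB/c against WT 4 of 9 were lower, beside 15.1%. Progesterone receptor targets had 4 of 9 lower and 0 higher in αERKO, with a median log2 ratio of -1.21: Tnfsf11, Fkbp5, Elf5 and Errfi1. Of all genes 12.9% were lower. Fkbp5 and Errfi1 are also glucocorticoid receptor targets, and Elf5 is also a luminal marker, a list with a median of -1.11. Elf5, for a factor of the alveolar lineage, had a level of 3.69 on the αERKO array and between 25.8 and 64.6 on the 6 others. On the βERKO-labelled array 1 of 10 was higher and 3 lower, the third being Calca (4.23-fold), beside 11.0% of all genes. Pgr was higher on the αERKO array than on the WT array by a log2 ratio of 0.26 and lower on the βERKO-labelled array by -0.60.

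Estrogen receptor targets showed no common direction. In αERKO 4 of 16 were higher and 3 lower, with a median log2 ratio of 0.18, beside 22.6% of all genes called. Igfbp4, for an IGF-binding protein, had a level of 19.7 for αERKO, 1.04 for the βERKO-labelled array and 3.74 for WT with DMBA, and Cxcl12, for a chemokine, had 7.40, 1.55 and 3.06. Cited1, for a coactivator, was 2.23-fold higher in αERKO. Nrip1, for the corepressor RIP140, had a level of 6.79 in αERKO against 22.9 on the βERKO-labelled array and 25.2 for WT with DMBA. Ctsd, for cathepsin D, was 2.38-fold lower and Ccnd1, for cyclin D1, at least 2.32-fold lower. On the βERKO-labelled array 2 of 17 were higher and 2 lower, beside 11.0%, and the 2 higher, Ccnd1 and Ramp3, fell under 2-fold when arrays were scaled to their 75th percentile. Beside these, the fibroblast markers summed to 426 on the αERKO array and 223 on the WT array with DMBA. Their part in Igfbp4 and Cxcl12 was not tested.

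No receptor chaperone or coregulator was over 2-fold higher in αERKO than in WT with DMBA. Of 13 chaperones 3 were lower, namely Fkbp5, Ptges3, for the cochaperone p23 (3.21-fold), and Ppp5c (2.26-fold), with a median log2 ratio of -0.50. That share, 23.1%, was near the 22.6% of all genes. Hsp90aa1, for the inducible HSP90, had a level of 44.9 for αERKO, 151 for the βERKO-labelled array, 88.5 for WT with DMBA and 262 for WT at 24 days, and was 2.97-fold lower with DMBA. Of 20 coregulators 4 were lower in αERKO, led by Nrip1 and the corepressor gene Ncor1 (2.42-fold), with a median of -0.48, and scaling to the 75th percentile left 2. Their share called, 20.0%, was also near that of all genes. On the βERKO-labelled array 1 of 13 chaperones (7.69%) and 1 of 21 coregulators (4.76%) were lower and 0 higher, below the 11.0% of all genes called.

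Of 24 other nuclear receptors 2 were higher and 1 lower in αERKO against WT with DMBA, a share below the 22.6% of all genes called. Esrrb, for ERRβ, with a level of 11.3 against 1.40 to 2.12 on the 6 other arrays, and Rarb, for a retinoic acid receptor (2.65-fold higher), were the 2 higher. Of 15 targets of estrogen-related receptors 1 was higher, the sarcomeric mitochondrial creatine kinase gene Ckmt2 (55.5-fold), and 1 lower, Pdk4 (2.09-fold). The share of these targets called, 13.3%, was also below that of all genes. Ckmt2 stood at 0.378 for WT with DMBA, near that array's lowest good level of 0.273. Esrrb and Ckmt2 were high on the same array as the 9 skeletal muscle markers, which summed to 2307 there. Their origin was not tested. Of 8 steroid ligand enzymes 1 was higher and 1 lower, a share of 25.0%, near the 22.6% of all genes. Akr1c18, which inactivates progesterone, was 3.37-fold higher, and Cyp1b1, which hydroxylates estradiol, was 7.60-fold lower. Both were higher on the βERKO-labelled array, Akr1c18 7.20-fold and Cyp1b1 3.78-fold. Hsd11b1, which activates glucocorticoids, was 4.38-fold higher with DMBA, 2.41-fold higher at 24 than at 10 days, 3.25-fold higher with vitamin D5 and 4.64-fold lower in BALB/c than in WT.

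**Figure D5:**
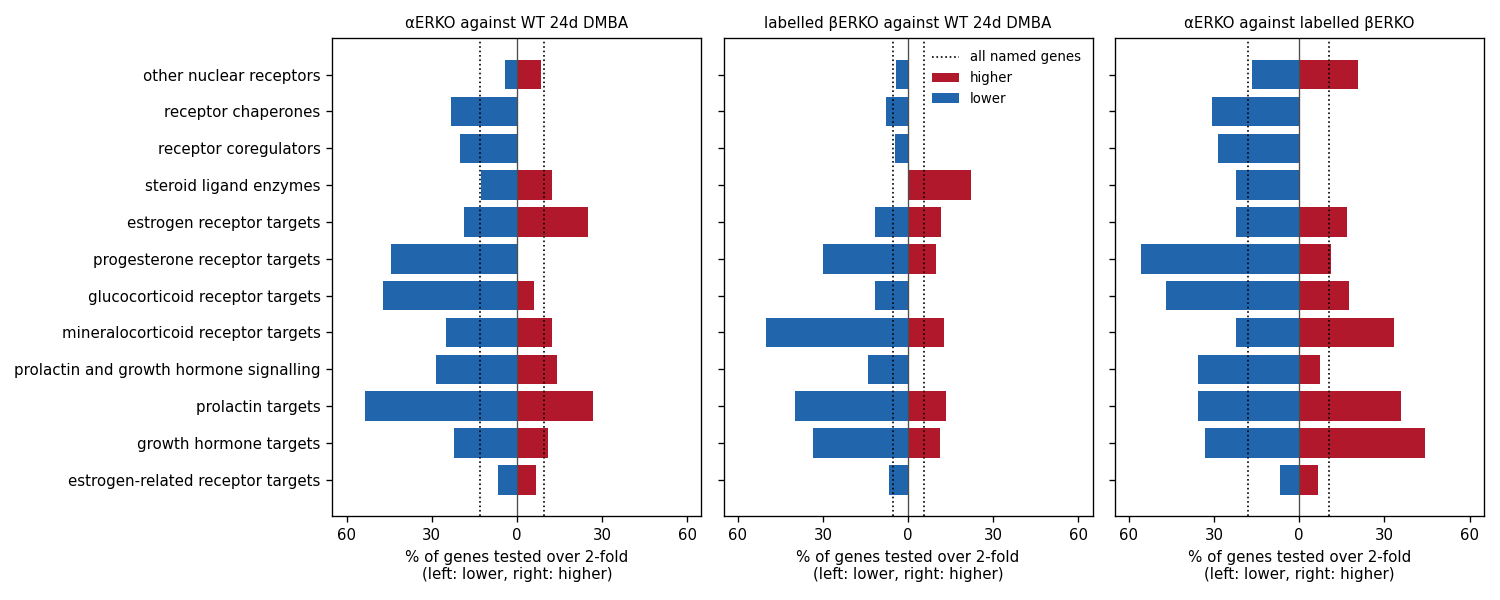
Percent of genes tested in each of the 12 lists that were over 2-fold higher (red, right) or lower (blue, left) in the study's 3 comparisons (panels); dotted lines give the same for all named genes. In αERKO against WT with DMBA the glucocorticoid receptor targets had 8 of 17 genes lower where all genes had 12.9%.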

How the data were processed

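CodeLink Mouse Whole Genome arrays were hybridized with RNA of 7 groups of organ-cultured glands, 1 array each. The authors deposited an intensity for each spot, which is the spot mean after subtraction of the local background median, and a quality call from the scanner software. A normalized intensity in the same tables served as an alternative, and the series table of values was not used. Intensities of 34967 gene probes were divided by their array's median, as in the study's methods, and log2 was taken. Control spots (320 negative, 300 positive) were left out. The median intensity lay between 39.1 and 53.0 over a local background of 80 to 83, with 68.4% to 74.2% of spots good, and the number of arrays limits the precision. Where subtraction left no positive value, the smallest positive one of that array was used.

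RefSeq's mouse table (GRCm38.p6) named 14763 of 15553 probes with a RefSeq accession, and the brightest probe stood for a gene. A bound was taken against the lowest good level on the array where the spot was dim, or the level of the dim spot itself if that was higher. With 1 array per group no p-value was computed. The receptor genes and lists were chosen with earlier results of these data known. Named list genes are at most the 3 largest calls each way in a comparison; others are stated as chosen later or belong to a list whose calls are given in full. Some genes that met this rule are not reported here. Counting was tested on simulated data. Python 3.11.15 with pandas 2.3.3 and limma 3.58.1 in R 4.3.3 were used.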

Additional observations from a re-analysis of the deposited data

How the results depend on the processing

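Of 49 alternative counts of receptor genes over 2-fold, 30 were within 1.5 times the first count and 19 were not, since each count was 0 or 1. Restricting to genes good on both arrays gave 0 in each of the 6 comparisons that had 1, where 2.21% to 26.7% of all such genes were called. Normexp background correction with an offset of 50 gave 0 in αERKO against the βERKO-labelled array, with DMBA, with time, with vitamin D5 and in BALB/c against WT. A 3-fold threshold gave 0 with DMBA, with time, with vitamin D5 and in BALB/c against WT. Scaling to the 75th percentile gave 2 (Esr2 and Pgr) in αERKO against the βERKO-labelled array and 0 with vitamin D5. Without bounds the count was 1 (Esr1) in αERKO against WT and 2 (Esr1 and Esr2) with DMBA. Of 176 alternative log2 ratios 164 lay within the SD between probes of the same accession, and the sign turned in 9, each of a gene under 2-fold: Prlr in αERKO against WT (0.06 and 0.05), Esrra on the βERKO-labelled array (-0.01 and -0.05), Esrra (-0.08 and -0.13) and Prlr (-0.02 and -0.02) with vitamin D5, and Pgr in BALB/c against WT (0.06). Scaling to the 75th percentile moved the median log2 ratio of all genes from -0.33 to -0.11 in BALB/c against WT, from -0.30 to -0.12 in αERKO against the βERKO-labelled array, from -0.15 to -0.02 in αERKO against WT and from 0.16 to 0.04 with vitamin D5. The share of higher genes among calls went from 28.8% to 52.1%, from 36.3% to 48.6%, from 42.6% to 52.5% and from 48.9% to 35.0% in these comparisons. With vitamin D5 it was 54.9% under quantile normalization and 85.5% under normexp, so its direction depends on the scaling. Other probes of a receptor gene could not be tried, as each has 1. No paired analysis was possible because each group has 1 array. Signal near background limits Esr1 and Esr2.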
